A study of Mus musculus with 11 samples.

Results

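The course after a sham operation was followed by comparing mesenchymal cells of the mouse lung taken at day 14 with cells taken at day 7. Every library with a sham label was used, 5 of the 11 in the study, with 3 from day 7 and 2 from day 14. The mice were of the C57BL6 strain, the operation left the lung whole, and the sort kept cells without EpCAM, CD45 or CD31 on their surface, proteins of epithelial, blood and endothelial cells. The other 6 libraries came from the same sort, strain and days after pneumonectomy (PNX), the removal of part of the lung, with 3 libraries a day. They entered the model for the spread between libraries and served as the comparison at the end. Age, and whether replicates came from separate animals, are not given in the sources used here, so the p-values measure only how far these libraries differ from each other, and part of that may be technical.

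Lung mesenchyme is a mixture of alveolar fibroblasts, which support the alveolar epithelium with growth factors and lipid, adventitial fibroblasts around vessels and airways, smooth muscle, pericytes and, in such a sort, mesothelial cells of the lung surface. These cells lay down collagen and elastin and respond to injury with cytokines, matrix and cell division. Lung surgery under anaesthesia also brings stress hormones, wound healing and recruitment of leukocytes, and a sham operation carries those parts of the procedure without the loss of tissue. Dissociation and sorting are known to induce immediate early genes such as Fos and Jun.

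Total counts were 7378207, 4082935 and 8362119 in sham day 7 replicates 1 to 3, and 2539628 and 9008592 in sham day 14 replicates 1 and 2. Across the genes above the median level, log expression correlated at 0.843 to 0.886 between day 7 libraries and at 0.825 between those of day 14. Day 14 replicate 1, the shallowest library of the series, stood apart. Receptor genes of the olfactory and vomeronasal epithelia, not normally transcribed in lung, took 1606 CPM of its total counts, against 90.8 in the other day 14 library and 89.9 to 635 at day 7. No count on Y-linked genes was found in day 7 replicate 3 or day 14 replicate 1, while the other 3 sham libraries had 1265 to 3903. After PNX, day 14 replicates 2 and 3 also had 0, and the other libraries 1026 to 2452. The part of this imbalance in the day effects and in the interaction was not tested beyond a Y-linked covariate. Genes of gated-out cells were present in all 5 libraries. Sftpc, the surfactant gene of alveolar type II cells, ranged from 23.5 CPM in day 7 replicate 3 to 11270 CPM in day 7 replicate 2, and was at 9933 and 1919 CPM at day 14. CPM express the counts of a gene relative to those of its library and, apart from the receptor genes and Xist above, are scaled by trimmed mean of M-values (TMM) factors. Adjusted p-values are from edgeR's quasi-likelihood test with Benjamini-Hochberg adjustment over all genes tested unless another tool is named.

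Of 16011 genes tested, 3 rose between day 7 and day 14 at an adjusted p under 0.05 (0.0187%) and 0 fell (0%). All 3 are genes of leukocytes: Ccl6, a chemokine of macrophages and granulocytes, Cybb, the catalytic subunit of the phagocyte NADPH oxidase, and Cd53, a tetraspanin found across leukocytes. At an unadjusted p under 0.05, 1012 genes were higher (6.32%) and 1271 lower (7.94%) at day 14. The day 14 libraries both lay above all 3 of day 7 for 2003 genes (12.5%) and below them for 1885 (11.8%). Over all 16011 the log2 fold change had a median of 0.05.

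Ccl6 (mm10 chromosome 11, 83587882 to 83593087, minus strand) was at 9.56, 18.7 and 4.21 CPM at day 7 and at 166 and 140 CPM at day 14. Both day 14 libraries stood far above all of day 7, and the log2 fold change was 3.84 ± 0.48 (SE, adjusted p = 0.00434). Reads of this gene and of E230016K23Rik, which overlaps it on the other strand, could not be told apart, since the strand setting of the counting is not given in the sources used here. Cybb (chromosome X, 9435252 to 9487771, minus strand) had 5.2, 9.45 and 2.76 CPM at day 7 and 43.0 and 55.3 CPM at day 14, a log2 fold change of 3.10 ± 0.48 (adjusted p = 0.0359). Cd53 (chromosome 3, 106759921 to 106790149, minus strand) had 4.08, 6.66 and 3.63 CPM at day 7 and 34.6 and 51.2 CPM at day 14, a log2 fold change of 3.18 ± 0.51 (adjusted p = 0.0431). The groups were separate for all 3, and in raw counts Cd53 went from 25 to 31 reads a library at day 7 to 103 and 420 at day 14. Without day 7 replicate 3 the adjusted p was 0.154 for Cybb and 0.169 for Cd53. Without PNX day 14 replicate 1, 2 or 3 it was 0.0785, 0.0903 and 0.0647 for Cybb and 0.0846, 0.113 and 0.0847 for Cd53. The call of Ccl6 held without each of the 11 libraries in turn, but was lost with total counts in place of TMM factors (adjusted p = 0.0631), with the 5 sham libraries alone (0.0532) and with a correction for GC content (0.0613), which together with its block and length forms made 5 of 26 settings. Cybb and Cd53 were each lost in 13 of 26: the 4 left-out libraries above, these 5 settings, limma voom (adjusted p = 0.0651 and 0.226), the replicate block (0.119 and 0.127), a test against a fold of 1.5 (0.0899 and 0.0992) and a background covariate (0.0587 for both).

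The promoters of these 3 genes are shown because they were the only genes past the threshold. The windows run from upstream of the start site in RefSeq (GRCm38.p6) to just inside the transcript, 5′ to 3′ on the gene's strand, with matches to GAGGAA or its reverse complement TTCCTC in capitals. GAGGAA is part of GAGGAAGT, a motif bound by Spi1, a transcription factor of myeloid and B cells. Other forms of the motif were not marked. The RefSeq start of Cybb lies inside the longer span that GENCODE gives the gene.
Ccl6, chr11:83593038-83593337: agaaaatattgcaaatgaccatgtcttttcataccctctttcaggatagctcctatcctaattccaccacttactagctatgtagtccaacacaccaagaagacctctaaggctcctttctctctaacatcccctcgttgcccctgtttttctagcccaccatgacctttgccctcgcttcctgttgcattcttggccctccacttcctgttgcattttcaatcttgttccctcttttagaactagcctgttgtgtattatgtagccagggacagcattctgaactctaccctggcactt
Cybb, chrX:9469275-9469574: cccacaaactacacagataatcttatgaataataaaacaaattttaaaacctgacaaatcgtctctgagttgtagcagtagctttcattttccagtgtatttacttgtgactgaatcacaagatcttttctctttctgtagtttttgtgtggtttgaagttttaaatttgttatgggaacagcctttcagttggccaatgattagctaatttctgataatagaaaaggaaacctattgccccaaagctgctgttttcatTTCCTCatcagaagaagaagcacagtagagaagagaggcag
Cd53, chr3:106790100-106790399: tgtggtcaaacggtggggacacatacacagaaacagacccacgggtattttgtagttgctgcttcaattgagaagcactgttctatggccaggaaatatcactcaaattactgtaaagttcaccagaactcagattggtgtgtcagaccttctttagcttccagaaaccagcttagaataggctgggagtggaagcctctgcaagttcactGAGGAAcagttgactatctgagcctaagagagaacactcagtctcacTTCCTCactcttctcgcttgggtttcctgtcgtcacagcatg
The Ccl6 window held 0 matches, the Cybb window 1, with its first base 9 bases after the start site, and the Cd53 window 2, with first bases at -39 and 8. Of 32851 promoter windows of this length, 9289 (28.3%) held at least 1 match on either strand, so these letters are common and describe the windows only. The longer GAGGAAGT or its reverse complement ACTTCCTC was in 1052 windows (3.2%), that of Cd53 among them. A window with 0 matches may hold other forms of the motif.

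**Figure D1:**
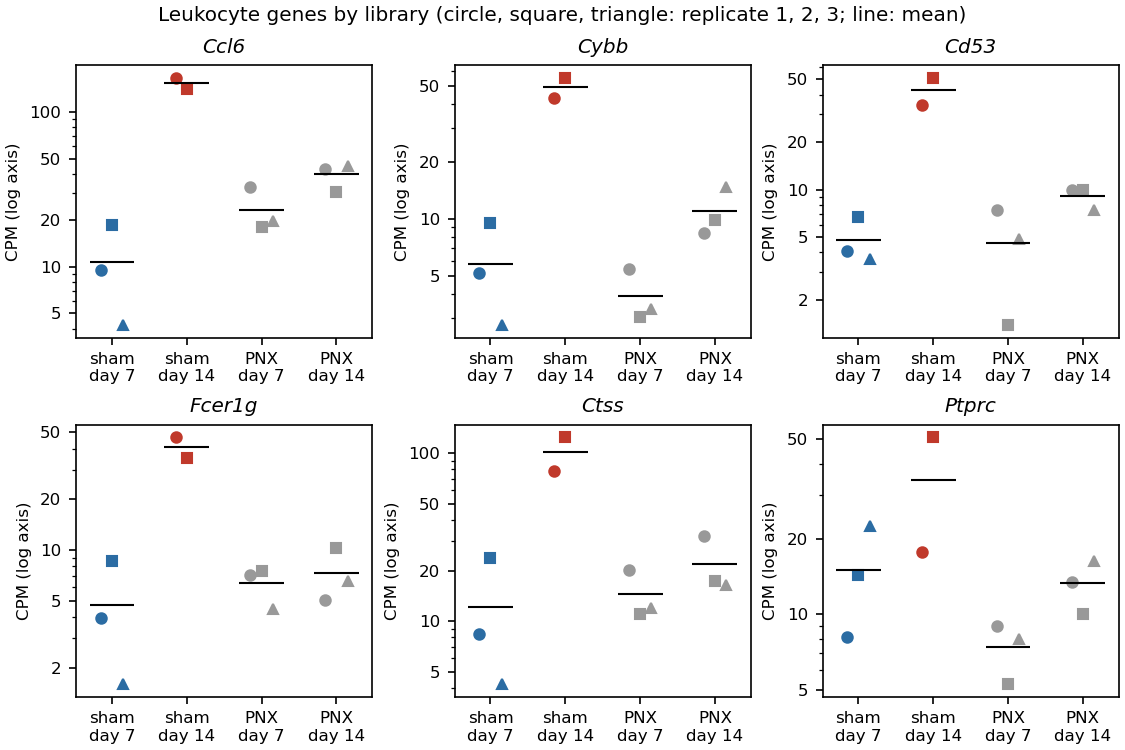
CPM of 6 leukocyte genes on a log axis in each library, by surgery and day, with circle, square and triangle for replicates 1, 2 and 3 and a line at the group mean. Ccl6, Cybb, Cd53, Fcer1g and Ctss lie higher in both sham day 14 libraries than in all of sham day 7, while for Ptprc day 14 replicate 1 (17.8 CPM) lies within the range of day 7 (8.15 to 22.6 CPM).

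The other 9 of the 12 higher genes of the naming rule did not pass, and most of them are also leukocyte genes. Fcer1g, the signalling chain of Fc receptors, was at 3.94, 8.59 and 1.6 CPM at day 7 and at 47 and 35.3 CPM at day 14 (log2 fold change 3.15 ± 0.55, adjusted p = 0.0626). Ctss, a lysosomal protease of antigen-presenting cells, was at 8.43, 23.6 and 4.21 CPM and then at 78.3 and 125 CPM (3.09 ± 0.55, adjusted p = 0.0729). Ifi27l2a, an interferon-induced gene, had 97.1, 46.2 and 42.5 CPM at day 7 and 399 and 224 CPM at day 14 (2.33 ± 0.41, adjusted p = 0.0695). For each of them the lowest day 14 library was above the highest of day 7, which the naming rule required. The chemokine receptor Ccr1, the pericyte gene Higd1b, the calprotectin subunit S100a9, the leukocyte surface gene Cd52, the chemokine Ccl5 and the Fc receptor Fcgr3 had log2 fold changes of 2.53 to 3.84 and adjusted p-values from 0.0758 to 0.0935. Higd1b was the one of these 12 known mainly from mesenchyme, at 2.81, 1.29 and 1.45 CPM at day 7 and 21.8 and 10.4 CPM at day 14.

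No gene passed on the lower side by edgeR or limma voom, while DESeq2 called 345 lower and 317 higher. The smallest p belonged to Gas7, a cytoskeletal adaptor, at 637, 613 and 1118 CPM at day 7 and 116 and 112 CPM at day 14. Its log2 fold change was -2.80 ± 0.47 with an adjusted p of 0.0543. That p was 0.00997 without replicate 1 of day 7, 0.0103 without replicate 2 of day 7, 0.0154 without replicate 2 of day 14 and 0.0439 without the third PNX library of day 7. Dpysl2, a microtubule regulator, was at 2781, 2394 and 4170 CPM and then at 743 and 814 CPM (-2.0 ± 0.44, adjusted p = 0.0975). Slc1a5, a glutamine transporter, had 284, 436 and 882 CPM at day 7 and 59.5 and 132 CPM at day 14 (-2.47 ± 0.53, adjusted p = 0.0975). In these 3 genes both day 14 libraries were below every day 7 library, again a condition of the naming rule. Med1, a Mediator subunit, the matrix glycoprotein gene Emilin2, Spryd3, Man2c1, Lrrc16a, Trim47, Asb2, Smg5 and Apba3 completed the 12 lower genes, with log2 fold changes of -2.90 to -1.68 and each an adjusted p of 0.0975.

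How many genes passed depended on single libraries. Without day 7 replicate 1, 2 or 3 the counts of higher and lower genes were 138 and 407, 25 and 4, and 1 and 0. Without day 14 replicate 1 they were 9 and 2, and without day 14 replicate 2 they were 292 and 666. Either of these leaves a single day 14 library, assumed to vary like the other groups, which supply the spread. The same holds for every other value given here without a day 14 sham library. Leaving out a PNX library gave 1 to 4 higher and 0 to 2 lower, with 1 higher gene without any of the 3 PNX day 14 libraries.

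**Figure D2:**
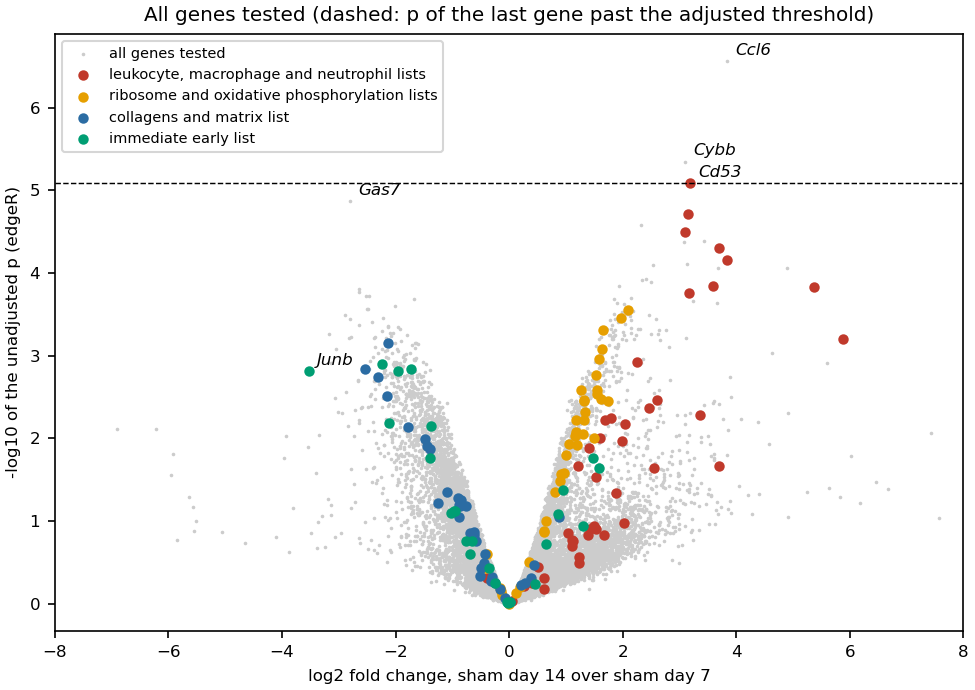
Log2 fold change of sham day 14 over sham day 7 (x) against the negative log10 of the unadjusted p (y) for 16011 genes, with members of 7 gene lists in 4 colours. The dashed line is the p of Cd53, the last gene past the adjusted threshold; Ccl6 and Cybb lie above it on the right, and no gene lies above it on the left.

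Gene lists were set beside the 3 calls. Cd53 belongs to the pan leukocyte list, while Ccl6 and Cybb are in none of the leukocyte lists or the cytokine list. Each list is described by its counts and median, with no test of the list. The shares over all genes to read them against are 6.32% higher and 7.94% lower at an unadjusted p under 0.05, and 12.5% higher and 11.8% lower with separate groups. In bulk cells, more cells of a type and more RNA in each cannot be told apart.

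Members of the pan leukocyte list, not all of them shared by every leukocyte type, were on the higher side at day 14. All 15 tested members had positive log2 fold changes, with a median of 1.79, and 10 reached an unadjusted p under 0.05 against 6.32% of all genes. Cd53 was the 1 member that passed. The groups were separate, with day 14 higher, for 9 of the 15, against 12.5% of all genes. Coro1a, Rac2, Arhgdib and Ptpn6 had log2 fold changes of only 0.05 to 0.62, with overlapping groups. Summed over the list, levels were 215, 204 and 293 CPM at day 7 and 497 and 615 CPM at day 14. Ptprc, which encodes the CD45 antigen removed by the sort, was at 8.15, 14.4 and 22.6 CPM at day 7 and 17.8 and 51.1 CPM at day 14. Its groups overlapped, and the log2 fold change of 1.21 ± 0.48 did not pass (adjusted p = 0.237). Tyrobp, a signalling adaptor of myeloid and NK cells, was at 2.11, 5.16 and 0.87 CPM and then at 19.2 and 13.5 CPM (2.61 ± 0.77, adjusted p = 0.129).

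Of 18 macrophage and monocyte genes, 17 were higher, with a median of 1.48, 8 at an unadjusted p under 0.05 (6.32% of all genes) and 11 with separate groups (12.5% of all genes). None passed. Chil3, a lectin of alveolar macrophages, was at 14.9, 33.7 and 3.19 CPM at day 7 and at 121 and 187 CPM at day 14 (3.18 ± 0.64, adjusted p = 0.0975). The mannose receptor gene Mrc1 had 3.65, 8.38 and 0.73 CPM and then 14.8 and 18.2 CPM (adjusted p = 0.179). Csf1r, the receptor that maintains macrophages, was at 8.01, 6.87 and 10.2 CPM at day 7 and 11.8 and 8.42 CPM at day 14, with overlapping groups. Summed levels of the list were 197, 888 and 90.0 CPM at day 7 and 1095 and 1054 CPM at day 14, so day 7 replicate 2 came near the later libraries. Lyz2, also a gene of alveolar type II cells, made up much of that sum and overlapped between days, at 99.0, 610 and 11.02 CPM and then 649 and 476 CPM.

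Neutrophil genes had the highest median of the 40 lists, at 2.52 over 10 tested members. All 10 were higher, 6 at an unadjusted p under 0.05 and 9 with separate groups, against 6.32% and 12.5% of all genes, and none passed. S100a9 was at 0.56, 1.5 and 1.16 CPM at day 7 and 16.1 and 11.95 CPM at day 14 (3.70 ± 0.70, adjusted p = 0.0791), and its partner in calprotectin, S100a8, at 1.12, 1.72 and 0.73 CPM and then 14.5 and 14.0 CPM (adjusted p = 0.0975). Ngp, a granule protein gene, was at 0.28, 0.64 and 0 CPM and then 4.03 and 20.9 CPM. These levels are low, with the summed list at 12.5 to 21.5 CPM at day 7 and 63.8 and 105 CPM at day 14.

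Lymphocyte genes lay on both sides. Among 9 B and plasma cell genes the median was 2.07, with Cd79a, a chain of the B cell receptor complex, at 2.95, 6.01 and 0.73 CPM and then 19.5 and 10.4 CPM (adjusted p = 0.137). Ebf1, which fibroblasts and pericytes also express, was the 1 lower member, at 167, 55.2 and 240 CPM and then 30.6 and 53.8 CPM (-1.86 ± 0.57, adjusted p = 0.137). Of 12 T and NK cell genes 6 were higher and 6 lower, with a median of 0.59. Ccl5 and Cd2 were the 2 at an unadjusted p under 0.05 (6.32% of all genes). The groups were separate, with day 14 higher, for 6 (12.5% of all genes). The kinase gene Lck was at 0.7, 4.51 and 72.2 CPM at day 7 and 7.06 and 8.78 CPM at day 14, so day 7 replicate 3 exceeded every other sham library. For 10 dendritic and mast cell genes the median was 0.71. In the lists of these 5 leukocyte types the part of cells carried through the sort was not tested.

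Cytokine and interferon-induced genes lay mostly on the higher side. Of 23 cytokine and acute phase genes 19 were higher, 8 at an unadjusted p under 0.05 (6.32% of all genes) and 12 with separate groups (12.5% of all genes), and the median was 0.79. The neutrophil chemokine gene Cxcl1 was at 217, 157 and 385 CPM at day 7 and at 952 and 820 CPM at day 14 (1.81 ± 0.44, adjusted p = 0.0975). Il6, a cytokine that fibroblasts secrete, was at 58.1, 76.9 and 170 CPM and then at 419 and 234 CPM (1.68 ± 0.44, adjusted p = 0.115). The monocyte chemokine gene Ccl7 had 346, 192 and 765 CPM and then 1972 and 1334 CPM (adjusted p = 0.116). Both day 14 libraries exceeded all of day 7 in these 3, and none passed. Icam1, an adhesion molecule, went the other way with a log2 fold change of -0.74.

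Of 24 interferon response genes 22 were higher, 7 at an unadjusted p under 0.05 and 9 with separate groups (6.32% and 12.5% of all genes), with a median of 0.72. The chemokine gene Cxcl10 was at 12.8, 27.7 and 12.6 CPM at day 7 and 62.8 and 50.5 CPM at day 14 (1.68 ± 0.46, adjusted p = 0.117). Bst2, which tethers budding viruses, was at 60.7, 58.4 and 52.9 CPM and then 180 and 93.1 CPM (adjusted p = 0.131). The median rested on day 14 replicate 2: it was 0.01 without that library and 0.96 without replicate 1.

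Genes of the ribosome and of the respiratory chain were higher at day 14, most of all in replicate 1. Among 20 genes of the cytosolic ribosome 20 were higher, 18 at an unadjusted p under 0.05 and 16 with separate groups, beside 6.32% and 12.5% of all genes, with a median of 1.26. None passed. Rps14, a protein of the small subunit, was at 383, 279 and 297 CPM at day 7 and at 1401 and 477 CPM at day 14 (1.55 ± 0.44, adjusted p = 0.124). Rpl27, of the large subunit, was at 78.3, 44.0 and 40.6 CPM and then at 227 and 101 CPM (1.59 ± 0.41, adjusted p = 0.115). The summed list stood at 6083, 4060 and 4360 CPM at day 7 and at 14250 and 6774 CPM at day 14. Without day 14 replicate 1 the median was 0.54, and without replicate 2 it was 1.62. Of 20 oxidative phosphorylation genes 15 were higher, with a median of 0.80. Of these 10 were at an unadjusted p under 0.05 and 12 had separate groups (6.32% and 12.5% of all genes). Cox6c, a subunit of cytochrome oxidase, was at 105, 68.5 and 39.3 CPM and then at 453 and 156 CPM (2.10 ± 0.47, adjusted p = 0.0975).

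Many of these transcripts are short, and short transcripts as a class were higher. Among 671 genes whose longest transcript is under 1000 bases the median log2 fold change was 1.00, and 90.2% were higher. It was 0.28 for 2577 genes from 1000 to 2000 bases, 0.00 for 6676 genes from 2000 to 4000 bases and -0.09 for 5928 longer genes. Against the mean of the 5 sham libraries, the median gene of the shortest class stood at -0.12, -0.44 and -0.53 on the log2 scale at day 7 and at 1.06 and 0.14 at day 14. Its median change was 0.47 without day 14 replicate 1, 1.25 without replicate 2 and 0.09 between the same days after PNX. Across 15852 genes the rank correlation of the log2 fold change with transcript length was -0.19 and with GC content -0.26, as a description across genes that share the same libraries. In 4 classes of rising GC content the median was 0.26, 0.09, -0.07 and -0.31 after sham and 0.21, 0.05, -0.13 and -0.37 between the same days after PNX, so this gradient was present in both courses. Genes lower at an unadjusted p under 0.05 had a median GC content of 55.2%, those higher 47.6% and all genes 49.6%, and their median lengths were 3812, 1723 and 3352 bases. Within each library, the deviation of genes from their mean over all 11 libraries was also ranked against GC content. This correlation was -0.12, 0.44 and 0.22 at sham day 7 and 0.073 and -0.29 at sham day 14. The part of length and GC content in the ribosomal and respiratory lists, and in the lists on the lower side given below, was not tested beyond the corrections for GC content and length. With a correction for both, the median of the ribosomal list was 0.84 and that of the respiratory list 0.22.

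**Figure D3:**
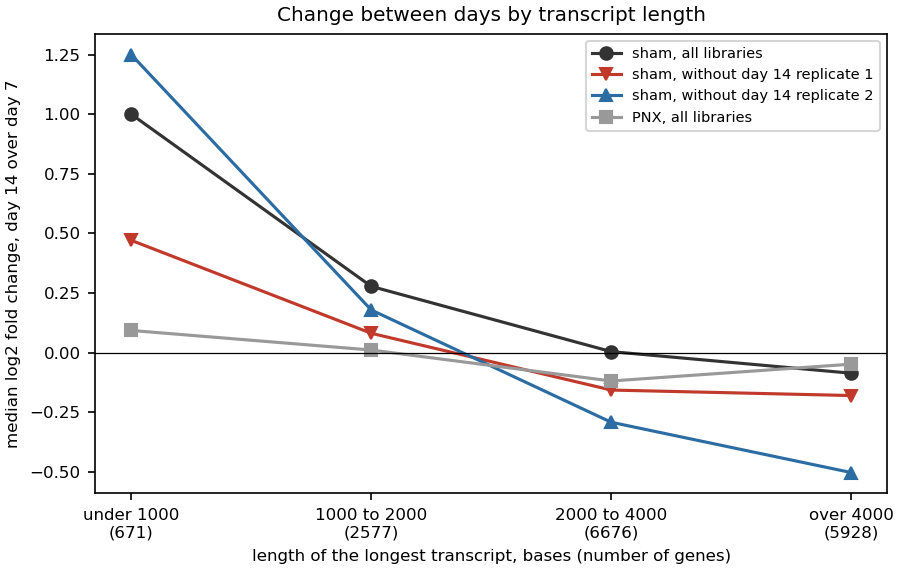
Median log2 fold change of day 14 over day 7 (y) for 4 classes of transcript length (x, with the number of genes), for sham with all libraries, sham without each day 14 library in turn, and PNX. The sham line runs from 1.00 in the shortest class to -0.09 in the longest, and the line for PNX lies between -0.12 and 0.09.

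Matrix genes lay mostly on the lower side. Of 35 collagen and matrix genes 29 were lower, 9 at an unadjusted p under 0.05 against 7.94% of all genes and 9 with separate groups against 11.8%, with a median of -0.62. None passed. Fbln2, a fibulin of elastic fibres and basement membranes, was at 191, 172 and 567 CPM at day 7 and 52.4 and 88.7 CPM at day 14 (-2.13 ± 0.52, adjusted p = 0.0997). Col1a1, the main chain of type I collagen, was at 945, 4767 and 5695 CPM and then at 421 and 1105 CPM (-2.32 ± 0.63, adjusted p = 0.116). Its groups overlapped, since day 7 replicate 1 lay below day 14 replicate 2. Loxl1, which crosslinks elastin, was at 218, 1172 and 2168 CPM and then 232 and 179 CPM, and its groups overlapped too. Col1a2, the other chain of type I collagen, had a log2 fold change of -0.69 ± 0.44 and Col3a1 one of -0.88 ± 0.45, smaller than for Col1a1. Fn1, Fbn1, Lox, Dcn and Vcan lay between -0.50 and -0.08. Thbs1, Mfap4, Tnc, Postn, Sparc and Loxl2 were the 6 on the higher side, at 0.02 to 0.87. Summed over the list, levels were 32848, 30468 and 46024 CPM at day 7 and 17031 and 33379 CPM at day 14. By this sum day 14 replicate 2 lay within the range of day 7, and replicate 1 lay below it. The median was -0.28 without day 14 replicate 1 and -1.37 without replicate 2.

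Markers of the fibroblast subtypes took different sides. Of 18 adventitial fibroblast genes 15 were lower, with a median of -0.67 and 3 at an unadjusted p under 0.05 (7.94% of all genes). Pi16, which marks a fibroblast of the adventitia, was at 2691, 2603 and 8569 CPM at day 7 and at 408 and 1046 CPM at day 14 (-2.67 ± 0.73, adjusted p = 0.117). Mfap5 and Dpt, of the same cells, had log2 fold changes of -0.01 and 0.26. Of 18 alveolar fibroblast genes 16 were higher, but 0 reached an unadjusted p under 0.05 (6.32% of all genes). The groups were separate for 1, Inmt (12.5% of all genes). Inmt, a methyltransferase, was at 3464, 2320 and 2037 CPM and then at 4375 and 4325 CPM (0.74 ± 0.45, adjusted p = 0.492). Tcf21, a transcription factor of these cells, was at 16.7, 33.7 and 24.7 CPM and then 29.9 and 30.0 CPM. Pdgfra, their growth factor receptor, was at 1098, 704 and 1161 CPM at day 7 and 155 and 1192 CPM at day 14, so replicate 1 of day 14 was the 1 low library. The alveolar fibroblast median of 0.27 was 0.71 without that library and -0.64 without day 14 replicate 2.

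Mesothelial genes had the lowest median of the 40 lists, at -1.04, with 11 of 13 lower, 5 at an unadjusted p under 0.05 and 5 with separate groups, beside 7.94% and 11.8% of all genes. Wt1, a transcription factor of the mesothelium, was at 52.0, 26.6 and 120 CPM at day 7 and at 16.1 and 19.5 CPM at day 14 (-1.89 ± 0.59, adjusted p = 0.145). Lrrn4 was at 163, 61.4 and 368 CPM and then 25.2 and 50.4 CPM (-2.37 ± 0.76, adjusted p = 0.163). Krt8 and Krt18, keratins that other epithelia share, had log2 fold changes of -0.11 and -0.29. The mean log2 CPM of the list was 7.15, 5.82 and 7.47 at day 7 and 5.54 and 6.35 at day 14. Day 7 replicate 2 thus lay below day 14 replicate 2, and the list overlapped between days. The median was -0.42 without day 14 replicate 1 and -1.58 without replicate 2.

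Among 16 smooth muscle and contractile genes 11 were lower, 4 at an unadjusted p under 0.05 (7.94% of all genes), with a median of -0.45. Lmod1, which nucleates actin filaments in smooth muscle, was at 103, 84.0 and 137 CPM and then at 39.3 and 55.4 CPM (adjusted p = 0.183). Acta2, smooth muscle actin, overlapped between days, at 1504, 769 and 1269 CPM and then 886 and 1113 CPM. Of 14 pericyte genes 7 were higher and 7 lower. Cox4i2, a cytochrome oxidase isoform of pericytes, was higher in both day 14 libraries, at 37.3 and 37.2 against 12.2, 16.8 and 6.53 CPM (1.66 ± 0.39, adjusted p = 0.0975). Pdgfrb, the receptor by which pericytes are recruited, had a log2 fold change of -1.62 ± 0.47 with overlapping groups. Alveolar myofibroblast genes had a median of -0.27, with 10 of 13 lower and 0 at an unadjusted p under 0.05 (7.94% of all genes). Lipid handling genes had a median of 0.65 (8 of 14 higher).

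Genes of signalling pathways are given beside the 7.94% of all genes that were lower and the 6.32% that were higher at an unadjusted p under 0.05. None passed. Of 10 hedgehog genes 9 were lower, with a median of -0.95 and 3 at an unadjusted p under 0.05. Ptch1, the hedgehog receptor and itself a target of the pathway, was at 9.0, 18.9 and 24.8 CPM at day 7 and at 3.02 and 3.66 CPM at day 14 (-2.37 ± 0.59, adjusted p = 0.102). Boc, a coreceptor, was at 98.7, 117 and 268 CPM and then 37.6 and 70.6 CPM (adjusted p = 0.129). Gli1, a widely used readout of the pathway, had a log2 fold change of -1.42 ± 0.69. Of 15 Wnt target genes 13 were lower, with 1 at an unadjusted p under 0.05, the feedback inhibitor Nkd2 (-1.29 ± 0.44, adjusted p = 0.167), while Axin2 had -0.59. Of 13 retinoid genes 8 were lower, 3 at an unadjusted p under 0.05 and 1 of the 5 higher ones also, among the lower them the receptor gene Rarg at 9.42, 53.7 and 87.0 CPM and then 5.71 and 8.17 CPM (adjusted p = 0.0975). Among 23 ligands of the alveolar niche the median was 0.14. Tgfb3 was at 131, 244 and 511 CPM at day 7 and 64.8 and 95.0 CPM at day 14 (-1.88 ± 0.50, adjusted p = 0.116), while Fgf10, a growth factor for the epithelium, was at 101, 67.4 and 109 CPM and then 46.0 and 180 CPM. YAP and SRF targets had a median of 0.03, with Axl at -1.99 ± 0.54 and Ctgf at 1.23 ± 0.55 (log2 fold changes).

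**Figure D4:**
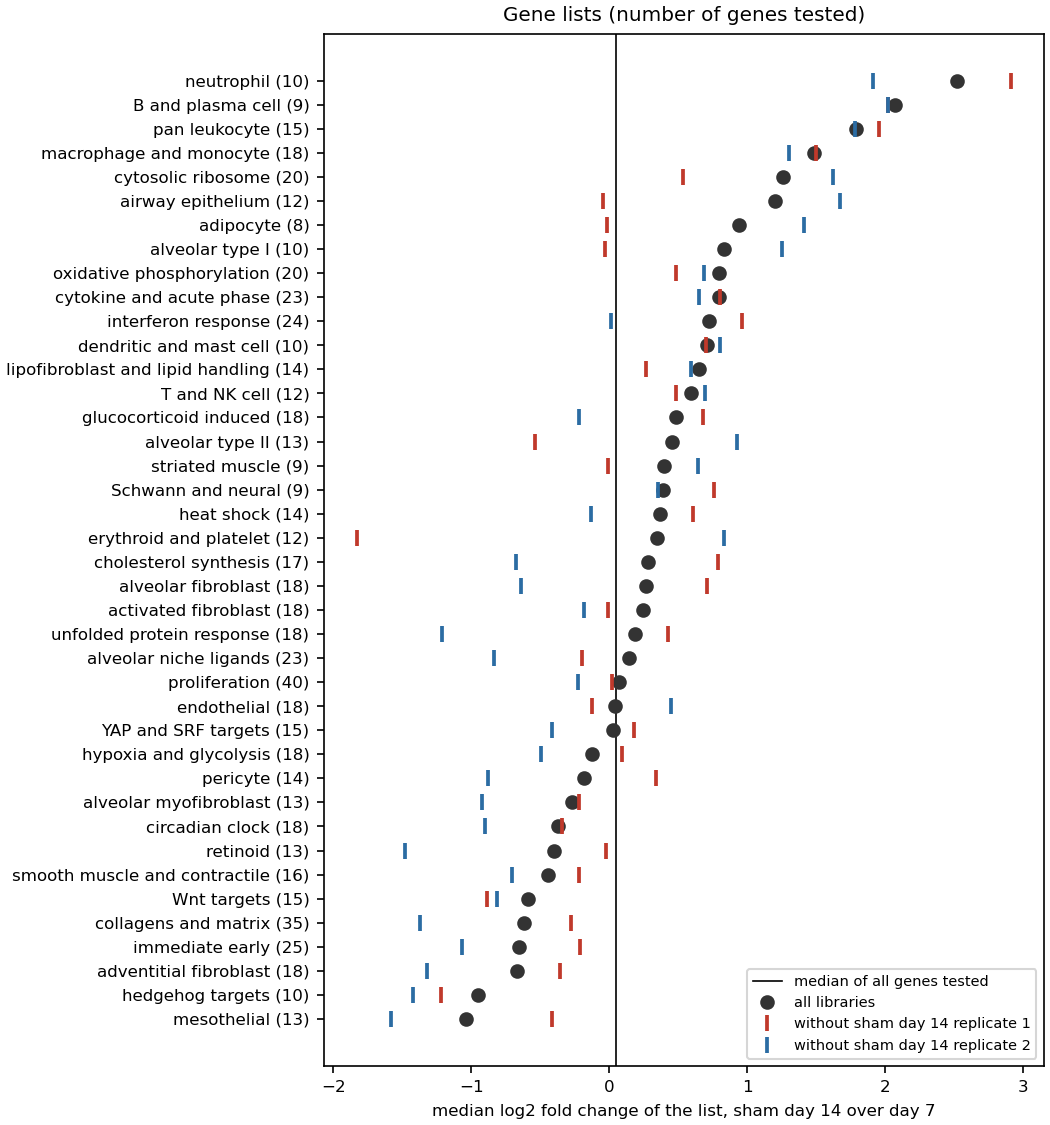
Median log2 fold change of sham day 14 over day 7 for 40 gene lists, with the number of tested genes in brackets: points for all libraries, ticks without each day 14 library. Neutrophil genes are highest at 2.52 and mesothelial genes lowest at -1.04, and for lists such as alveolar fibroblast the ticks fall on both sides of 0.

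Immediate early genes were split. Of 25 tested 17 were lower, 7 at an unadjusted p under 0.05 (7.94% of all genes), and 3 of the 8 higher ones also reached it (6.32%), with a median of -0.65. Junb, an AP-1 subunit, was at 1477, 7507 and 11390 CPM at day 7 and at 356 and 821 CPM at day 14 (-3.53 ± 0.90, adjusted p = 0.116). Nr4a1, an orphan nuclear receptor, was at 2255, 3593 and 8393 CPM and then at 594 and 1427 CPM (-2.23 ± 0.58, adjusted p = 0.115). Egr1, a zinc finger factor, was at 2179, 3482 and 5383 CPM and then at 838 and 1398 CPM (-1.72 ± 0.46, adjusted p = 0.116). All 3 had separate groups with day 14 lower. Jund, Ier5 and Ier3 were the members on the higher side at an unadjusted p under 0.05. Jund was at 102, 254 and 90.2 CPM and then at 769 and 122 CPM, so replicate 1 was the 1 day 14 library outside the range of day 7. Fos, often read as a sign of dissociation, had a log2 fold change of -0.65 ± 0.46.

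Glucocorticoid-induced genes were higher for 12 of 18 members, 4 at an unadjusted p under 0.05 (6.32% of all genes), with a median of 0.48 that was -0.22 without day 14 replicate 2. The metallothionein gene Mt2 was at 59.5, 24.3 and 35.8 CPM at day 7 and at 178 and 105 CPM at day 14 (1.82 ± 0.50, adjusted p = 0.116). Tsc22d3, which encodes the glucocorticoid-induced leucine zipper, was at 268, 254 and 171 CPM and then at 295 and 875 CPM (1.34 ± 0.42, adjusted p = 0.141), and Per1 had a log2 fold change of -0.08. Among 18 circadian clock genes 14 were lower, 3 at an unadjusted p under 0.05 (7.94% of all genes), with a median of -0.37. Npas2, a partner of Bmal1, was at 13.8, 17.4 and 35.1 CPM and then 8.4 and 7.32 CPM (adjusted p = 0.175), and Arntl, which encodes Bmal1, had -1.11 ± 0.46 with overlapping groups. The hours at which tissue was taken are not given in the sources used here.

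Proliferation genes lay on both sides. Of 40 members 24 were higher and 16 lower, with 3 of the higher and 1 of the lower at an unadjusted p under 0.05, beside 6.32% and 7.94% of all genes. The median of 0.07 ran from -0.23 to 0.86 over the other settings and had the other sign in 7 of them. Mki67, a marker of dividing cells, was at 4.36, 7.3 and 11.6 CPM at day 7 and 24.2 and 12.4 CPM at day 14 (1.22 ± 0.47, adjusted p = 0.22), while Mcm2, of the replicative helicase, had -1.90 ± 0.67. Genes of activated fibroblasts had a median of 0.24 over 18 members, 10 higher and 8 lower. Cthrc1, a marker of collagen-producing fibroblasts after injury, was at 8.57, 5.58 and 11.6 CPM and then 26.9 and 14.3 CPM (adjusted p = 0.169), and Spp1, also a macrophage gene, at 17.0, 13.3 and 6.38 CPM and then 37.6 and 72.9 CPM (adjusted p = 0.145). On the lower side Fap, a surface protease of activated fibroblasts, had a log2 fold change of -1.20 ± 0.80 with overlapping groups, Pdgfc -0.82 and Inhba -0.66, while Col8a1, a short-chain collagen, was at -0.90 ± 0.43 with separate groups. Medians were 0.37 for heat shock, 0.19 for unfolded protein response, 0.28 for cholesterol synthesis and -0.12 for hypoxia and glycolysis genes. Without day 14 replicate 2 the first 3 of these were -0.14, -1.21 and -0.68.

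Genes of gated-out epithelium varied widely between libraries of the same day. Airway genes had a median of 1.20, which was -0.04 without day 14 replicate 1. Scgb1a1, the secretoglobin of club cells, was at 217, 210 and 3.77 CPM at day 7 and at 1549 and 493 CPM at day 14 (adjusted p = 0.37). Epcam itself was at 1.97, 3.87 and 0.58 CPM and then 13.4 and 4.39 CPM (adjusted p = 0.184). Alveolar type II and type I genes had medians of 0.46 and 0.83, which without that library were -0.54 and -0.03. Endothelial genes had a median of 0.04, which ran from -0.28 to 2.19 over the other settings with the other sign in 8, with Pecam1, which encodes CD31, at 19.7, 85.7 and 11.7 CPM and then 74.9 and 77.0 CPM. Erythroid and platelet genes had a median of 0.35 (-1.83 to 0.95 over the other settings), Schwann and neural genes 0.39, adipocyte genes 0.94 and striated muscle genes 0.40.

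**Figure D5:**
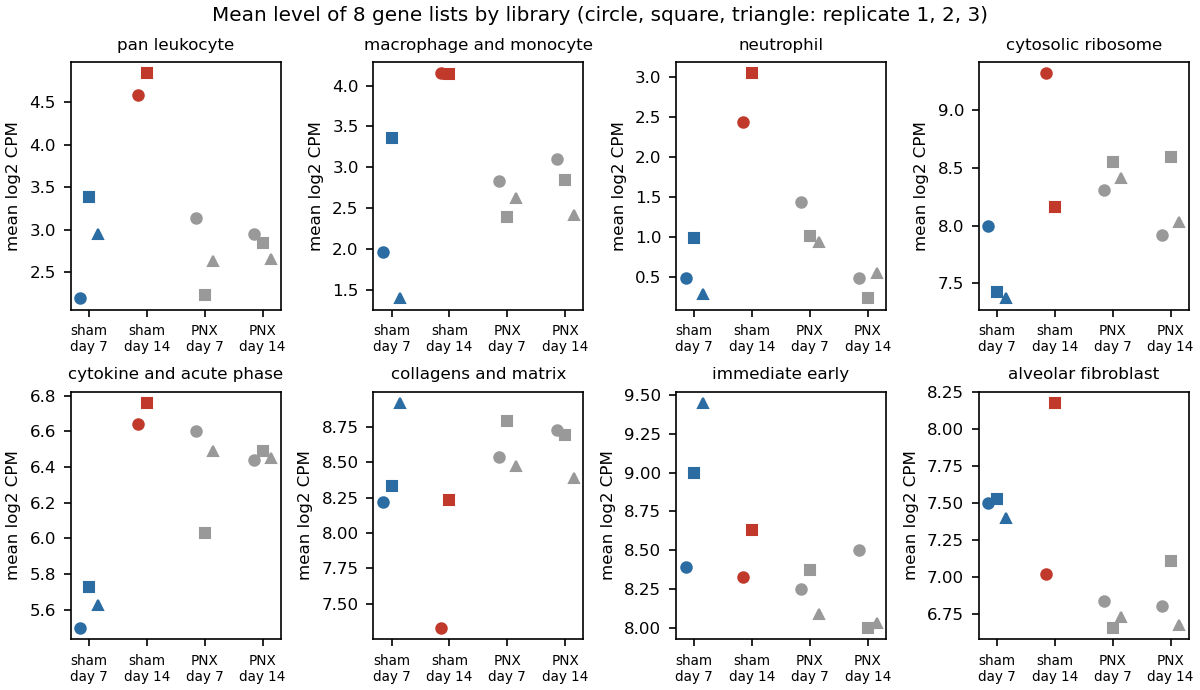
Mean log2 CPM of the tested members of 8 gene lists in each library, by surgery and day, with circle, square and triangle for replicates 1, 2 and 3. In the pan leukocyte, macrophage, neutrophil, ribosome and cytokine panels both sham day 14 libraries lie above all 3 of sham day 7, whereas in the alveolar fibroblast panel they lie on either side at 7.02 and 8.18.

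The same days after PNX were compared through the interaction, the day effect after PNX minus that after sham. The 2 courses share no library. No gene passed (0 of 16011, 0%, by edgeR), while DESeq2 called 77 and limma voom 1. At an unadjusted p under 0.05 the interaction was higher for 666 genes (4.16%) and lower for 736 (4.6%). The smallest adjusted p, 0.0724, was that of Ifi27l2a, which had a log2 fold change of 2.33 after sham and -1.31 after PNX. After PNX it was at 147, 183 and 171 CPM at day 7 and at 55.6, 90.2 and 55.5 CPM at day 14. Gas7 was -2.80 after sham and 0.43 after PNX (interaction 3.22 ± 0.59, adjusted p = 0.16). Wt1 was -1.89 after sham and 1.85 after PNX (3.73 ± 0.78, adjusted p = 0.203). Ccl6 was 3.84 after sham and 0.75 after PNX, with an interaction of -3.09 ± 0.62 (adjusted p = 0.168), and the interaction had an adjusted p of 0.481 for Cybb and 0.357 for Cd53, so a difference between the courses was not shown for the 3 genes that rose after sham. Mki67 was 1.22 after sham and -2.19 after PNX (-3.41 ± 0.63, adjusted p = 0.16), and Map3k1, a kinase of the stress pathway, -1.52 and 2.15 (3.67 ± 0.65, adjusted p = 0.16).

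Set side by side, list medians were 2.52 after sham and -1.08 after PNX for neutrophil genes, and by the same order were 2.07 and -0.53 for B and plasma cell genes and 0.46 and 2.51 for alveolar type II genes. They also differed in macrophage genes (1.48 and -0.06), pan leukocyte genes (1.79 and 0.22), ribosomal genes (1.26 and -0.22), proliferation genes (0.07 and -1.67) and interferon genes (0.72 and -0.61). For the interaction, 11 of 24 interferon genes and 16 of 20 ribosomal genes were lower at an unadjusted p under 0.05 (4.6% of all genes). So were 21 of 40 proliferation genes, 7 of 10 neutrophil genes, 7 of 18 macrophage genes and 6 of 15 pan leukocyte genes. Of 9 B and plasma cell genes 2 were lower and 1 higher at that p. Of 13 alveolar type II genes 0 reached it in either direction. On the higher side 9 of 35 matrix genes reached that p (4.16% of all genes), with a list median of 0.505. Over all genes the sign was the same in both courses for 51.3%, and for 60.8% of those higher and 70.3% of those lower after sham at an unadjusted p under 0.05. The last 2 shares are to be read against all 16011 genes after PNX, of which 7353 were higher and 8657 lower. The part of the GC gradient present in both courses was not tested here. Without day 14 replicate 2 of sham 370 genes passed the interaction, and without day 14 replicate 1 of sham 5. Leaving out replicate 2 of sham at day 7 gave 13, replicate 1 of that group 2, and the first PNX library of day 14 gave 1.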

How the data were processed

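Libraries were made with a single-cell or low-input kit from column-purified RNA, per the labels' protocols. The authors deposited raw read counts per gene symbol, 1 column for each of 11 libraries. The submitters' processing notes name bcl2fastq 2.20.0.422 and mm10, and the aligner, counting tool, annotation and strand setting are not given in the sources used here. Values were checked to be whole and unscaled. Analysis was in R 4.3.3. With edgeR 4.0.16, a filter on low counts (filterByExpr, by group) removed 8400 of 24411 symbols and left 16011, TMM factors were computed, and 4 group means were fitted by robust quasi-likelihood on all 11 libraries (7 residual degrees of freedom), with Benjamini-Hochberg adjustment over all genes and a threshold of 0.05. The standard error is the absolute log2 fold change divided by the square root of F. Named genes are the 12 of smallest p or largest called change in each direction with separate groups and a mean log2 CPM no lower than 1, the 3 members of smallest p in each of 40 lists, a panel of 25 genes and 5 interaction genes in each direction. Other list members named were chosen after their values were seen. The members and lists were chosen with earlier results of these data known. Symbols were matched to GENCODE M21 and RefSeq (98.4%), and promoter sequences are from RefSeq. Other settings used DESeq2 1.42.0, limma 3.58.1 voom, RLE or total-count scaling, other filters, the 5 sham libraries alone, a replicate block, a Y-linked covariate, a fold threshold of 1.5 and each library left out. Settings for GC content, transcript length and background were chosen after seeing the data. The steps were tested on simulated data. Figures used matplotlib 3.10.9.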

Additional observations from a re-analysis of the deposited data

How the results depend on the processing

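Day 14 against day 7 after sham gave 3 higher and 0 lower genes. The counts of higher and lower genes were 317 and 345 with DESeq2, 1 and 0 with limma voom, 3 and 1 with RLE factors, 0 and 0 with total counts, 51 and 51 with no filter, 4 and 1 with a filter of 1 CPM in 2 libraries, 0 and 0 with the 5 sham libraries alone, 5 and 0 with a Y-linked covariate, 1 and 0 against a fold of 1.5, 0 and 0 with the GC offset and with the GC and length offset, 1 and 0 with a background covariate, and 21 and 3 with the 2 sham libraries of most background left out (day 7 replicate 2 and day 14 replicate 1), which leaves 1 library at day 14 that is assumed to vary like the other groups. The causes were not tested. With 1 library left out, the higher count ran from 1 to 292, the lower count from 0 to 666 and the interaction count from 0 to 370. The interaction count of 0 became 77 with DESeq2, 8 with no filter, 11 with those 2 libraries left out, and 1 with limma voom, with total counts, with the Y-linked covariate and with the replicate block.

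The replicate number as a block gave 1 higher and 0 lower genes, and with a GC offset 0 and 0. Same-numbered libraries did not deviate together in every pair (correlations from -0.46 to 0.54 across genes above the median level). The numbers were therefore not taken to pair samples.

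The log2 fold change changed sign for 11 named genes that did not pass. With 1 library left out it ran from -0.15 to 1.33 for Figf, -0.12 to 1.13 for Ces1d, -0.085 to 1.17 for Dnajb4, -1.18 to 0.97 for Fgf10, -0.33 to 0.68 for Wnt2, -0.71 to 0.61 for Npnt, -0.046 to 2.15 for Aqp5, -1.57 to 3.19 for Retn, -1.04 to 3.92 for Sftpc and -2.84 to 0.28 for Pdgfra. With the 2 sham libraries that had most background left out it was -2.05 for Retn and 0.081 for Pdgfra. It was -0.025 for Timp1 and -0.58 for Sftpc with the GC and length offset, -0.013 for Fgf10 with limma voom, -0.076 for Fgf10 with the GC offset and block, and -0.087 for Npnt with the block. Scaling by total counts moved the median of all genes from 0.05 to 0.13, and the GC offset to 0.17. The medians of the pan leukocyte (1.34 to 2.38), neutrophil (1.84 to 3.24), macrophage (1.06 to 2.59), ribosome (0.42 to 1.62) and matrix (-1.37 to -0.15) lists kept their sign in all 26 settings. With 2 libraries at day 14, 1 of them of 2539628 counts, changes of low genes may be missed.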

Other observations

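The values of 5 genes of antigen presentation by MHC class II are given here. They were chosen after their values were seen, belong to no fixed list apart from Cd74, and none passed. H2-Aa, an alpha chain, was at 13.5, 69.4 and 6.96 CPM at day 7 and at 177 and 139 CPM at day 14 (log2 fold change 2.41 ± 0.81, adjusted p = 0.191). H2-Ab1, its beta chain, was at 33.6, 211 and 24.8 CPM and then at 399 and 384 CPM (2.13 ± 0.75, adjusted p = 0.203), and H2-Eb1 at 10.5, 32.0 and 3.05 CPM and then at 82.6 and 85.3 CPM (2.49 ± 0.72, adjusted p = 0.136). H2-DMa, which loads peptides onto these molecules, was at 3.51, 8.59 and 2.32 CPM and then at 24.9 and 28.3 CPM (2.49 ± 0.51, adjusted p = 0.0975), and the invariant chain Cd74 at 172, 868 and 85.8 CPM and then at 1204 and 1595 CPM (1.90 ± 0.80, adjusted p = 0.291). Both day 14 libraries were above all 3 of day 7 for each of these 5 genes, as for 12.5% of all genes, and day 7 replicate 2 was the nearest.

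Members of the T and NK cell list differed in which sham library was highest. Cd3e, a chain of the T cell receptor complex chosen after its values were seen, was at 15.5 CPM in day 7 replicate 3, against 1.12 and 1.29 in the other day 7 libraries and 2.02 and 2.32 at day 14. Cd2, a surface receptor of the same cells, was at 5.08 CPM in that library and at 22.8 and 15.4 CPM at day 14, and Gzma, a granzyme, at 4.79 CPM and then 13.8 and 10.98 CPM. The mean log2 CPM of the list was -0.12, 1.46 and 2.71 at day 7 and 2.8 and 2.42 at day 14.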
